A study of Mus musculus with 2 samples.

Results

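Pericytes and vascular smooth muscle cells were examined as the cells of mouse dorsal skin that carried their marker transcripts. Members were chosen by measured values: a cell needed a UMI (a counted mRNA molecule) of at least 3 of the 7 genes Rgs5, Abcc9, Vtn, Myh11, Acta2, Tagln and Notch3, called the rule genes below. A member also had fewer than 3 of 6 endothelial genes with a UMI, under 15 UMIs per 10000 of the C1q genes and under 100 of 3 collagen genes. The rule chose 86 of 3797 kept cells, or 2.26% (exact 95% Clopper-Pearson interval 1.82 to 2.79%). This interval leaves out the choice of limits: a mitochondrial limit of 5% in place of 10% gave 14 members, and one of 20% gave 164.

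Droplet sequencing with 3' chemistry was applied to skin of WT male mice aged 9 weeks or 108 weeks. Each age was 1 sample of 2 pooled mice, whose dorsal skin was digested and gated on F4/80 with MHC class II at a high level, a sort meant for macrophages. Mural cells passed it as a minority, so that the members stand for the mural cells that this sort let through and not for those of the whole skin. The matrix joins both samples and separates their barcodes by a suffix that nothing ties to an age, so the libraries are named by suffix, and age cannot be told apart from library.

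The kept cells held 32802942 UMIs with suffix 1 and 17997946 with suffix 2. Suffix 1 gave 36 members of 2396 kept cells (1.50%, interval 1.05 to 2.07%) and suffix 2 gave 50 of 1401 (3.57%, interval 2.66 to 4.68%). The share of members was thus higher in the library with suffix 2, and whether this goes with age or with the sort was not tested. No kept barcode sequence occurred with both suffixes. All intervals cover counting error only, and no replicate check was possible with 1 library per age. Cells are not replicates, so every difference below is a size and no test was made.

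Mural cells wrap the endothelium of blood vessels. Pericytes sit inside the basement membrane of capillaries and venules, are kept there by platelet-derived growth factor signalling through PDGFRB, and carry ATP-sensitive potassium channels. Smooth muscle cells surround arterioles and larger venules and are packed with actin, smooth muscle myosin and the proteins that regulate them. In inflamed skin, mural cells also secrete chemokines for leukocytes that leave the vessel.

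The members were not of one kind, and some of them went against the label. UMIs of the 7 rule genes ranged from 0.218 to 443 per 10000 UMIs of a cell, with a median of 101. After the other markers of the members had been seen, they were divided at 20 rule-gene UMIs per 10000: 62 members lay at or above this limit (22 with suffix 1 and 40 with suffix 2), here called rule-gene-high, and 24 lay under it (14 and 10). Results are given for all 86 members and for the 62. The 24 cells were deeper, at a median of 9580 UMIs against 4623, and held 61.3% of the members' UMIs, so that sums over all members follow them. Only 7 members lay within 5 of the limit.

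Markers of skeletal muscle were present in many of the 24 rule-gene-low cells. At least 3 of 10 skeletal muscle genes had a UMI in 14 of the 24 and in 0 of the 62. Myod1 or Pax7, transcription factors of muscle precursors, had a UMI in 10 of the 24 cells, 5 in each library, and in 0 of the 62. The summed level of this list in the 24 cells was 407 CPM (UMIs of a gene per 1e+06 UMIs) with suffix 1 and 2030 CPM with suffix 2, with Acta1, skeletal actin, as its most abundant gene at 189 CPM. Over the 62 cells it was 176 and 24.4 CPM, led by Ckm at 49.2 CPM, with Myh4, Myh1, Pax7, Myf5 and Myod1 at 0.

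Markers of further types were also found in rule-gene-low cells, in part in the same cells. At least 3 of 10 genes of the keratinocyte list had a UMI in 5 of the 24 cells (1 of the 62), of the Schwann cell list in 4 (1), of the macrophage list in 8 (2), of the fibroblast list in 18 (17), and at least 3 of 7 mast cell genes in 1 (0). At least 3 of 6 MHC class II genes were found in 13 of the 24 (9 of the 62), at 7717 CPM with suffix 1 and 189 CPM with suffix 2. So many were also found in 195 of 464 fibroblasts and 99 of 287 endothelial cells. As the 24 cells are also deeper than the 62, nothing is read from the MHC class II and fibroblast counts. The keratinocyte list summed to 2699 CPM with suffix 1 and 24364 CPM with suffix 2 in the 24 cells, led by Lgals7 at 2047 CPM and with 66.4% of its UMIs in 1 cell, against 50.3 and 41.8 CPM in the 62, led by Krt10 at 17.2 CPM, with Krtdap at 0. The deepest member, with 137407 UMIs and suffix 1, had 1121 UMIs of the fatty acid desaturase Scd1 and 488 of Krt14, beside 1 each of Myh11, Acta2 and Notch3. The macrophage list summed to 716 and 34.4 CPM in the 24, led by Lyz2 at 355 CPM with none at 0. It was at 853 CPM in endothelial cells, and 43.5% of its UMIs in the 24 lay in 1 cell, so nothing is read from it. For the 24 cells the name pericyte or smooth muscle is not carried by the other values above, and they are called by the rule alone.

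**Figure D1:**
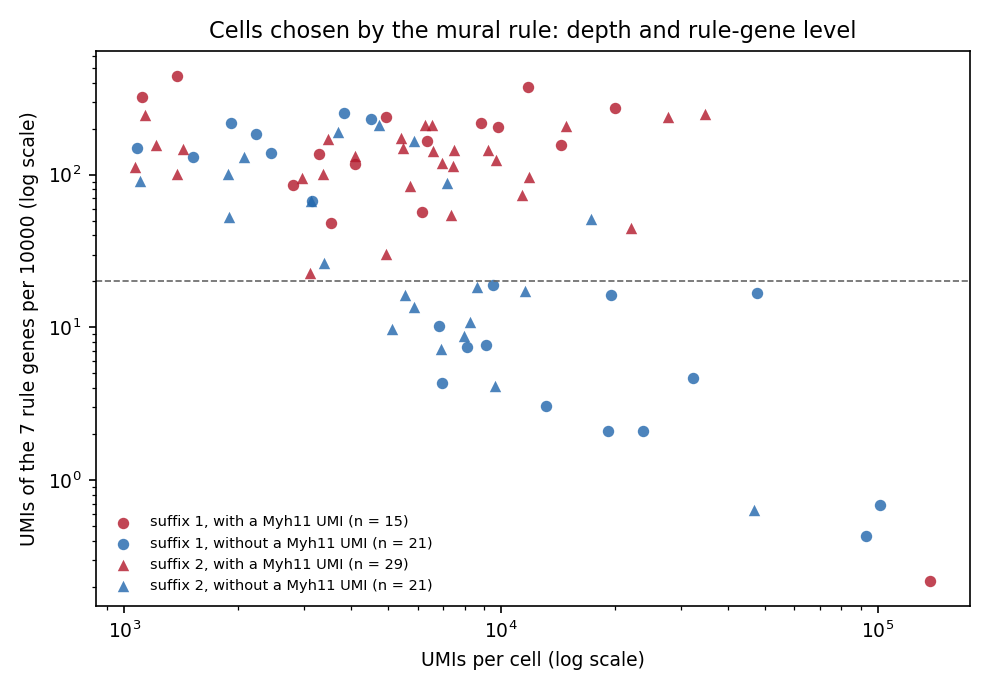
UMIs per cell (x, log scale) against UMIs of the 7 rule genes per 10000 (y, log scale) for each of the 86 members, by library suffix (circle or triangle) and by whether a Myh11 UMI was found (red or blue). The dashed line is the limit of 20, above which 62 members lie. The 24 cells under it include the deepest members, and 1 of them had a Myh11 UMI.

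Other lineages were looked for in the 62 rule-gene-high cells as well. The endothelial list of 10 genes summed to 50.3 CPM with suffix 1 and 87.0 CPM with suffix 2, with Flt1 highest at 24.6 CPM and none of the genes at 0, against 5914 CPM in endothelial cells. The macrophage list summed to 101 and 407 CPM, with Lyz2 highest at 234 CPM and C1qc and Fcgr1 at 0, against 17413 CPM in cells high in C1q. The MHC class II list of 6 genes summed to 461 and 6171 CPM, led by Cd74 at 2260 CPM with none at 0, and 94.6% of these UMIs lay in 1 cell of 17260 UMIs with suffix 2 that had 67 Rgs5 UMIs and no Myh11 UMI. The fibroblast list summed to 1602 and 1375 CPM, led by Col3a1 at 448 CPM with none at 0. Of its UMIs 46.2% lay in 1 cell, and 17 of the 62 cells had at least 3 of its 10 genes. So did 366 of 1121 C1q-high cells and 66 of 287 endothelial cells, so that nothing is read from this count. With and without a Myh11 UMI, the split used below, the endothelial list was at 42.0 and 233 CPM, the macrophage list at 59.9 and 1495 CPM and the fibroblast list at 1538 and 1001 CPM. The MHC class II list was at 216 and 24078 CPM and the Schwann cell list at 39.0 and 206 CPM. Of the macrophage UMIs of the 62 cells 62.0% lay in 1 cell, and of the Schwann cell UMIs 46.4%. The part of these markers in the genes called higher or lower with Myh11 was not tested, other than by leaving out cells rich in MHC class II.

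The rule genes chose the cells, so their levels are a description. Over the 62 cells they summed to 20789 CPM with suffix 1 and 14291 CPM with suffix 2, against 478 CPM in endothelial cells, 97.4 in fibroblasts and 10.4 in C1q-high cells. Acta2, the actin of smooth muscle, was the most abundant at 6176 CPM, and Tagln, the actin-binding transgelin, reached 4435 CPM. Rgs5, a regulator of G protein signalling, reached 2962 CPM, and the myosin heavy chain gene Myh11 1441 CPM. Notch3, the receptor through which endothelial cells sustain mural identity, stood at 580 CPM. Abcc9, the regulatory subunit of the vascular ATP-sensitive potassium channel, stood at 320 CPM, and Vtn, the adhesive protein vitronectin, at 283 CPM.

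At the threshold itself, the 21 members with exactly 3 rule genes had a median of 10.2 rule-gene UMIs per 10000 and of 11752 UMIs per cell. Just outside it, 51 cells within the other limits had 2 rule genes, with medians of 2.78 per 10000 and 15311 UMIs. The endothelial limit removed most: 155 of the 245 kept cells with at least 3 rule genes also had at least 3 endothelial genes, at a median depth of 17635 UMIs and 32.0 rule-gene UMIs per 10000. Whether such barcodes hold more than 1 cell was not tested. Members had a median of 7.45% mitochondrial UMIs against 4.32% in all kept cells, close to the limit of 10%.

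Genes that the rule did not use were then compared with all other kept cells. Among genes with at least 100 UMIs over the members, 268 of 1624 (16.5%) were at least 2-fold higher in all 86 members, and 168 of 601 (28.0%) in the 62. The rule selected these cells for a mural pattern, so nothing is read from these counts. Of the 20 genes that led in all 86 members, 15 had over 50% of their UMIs in 1 cell. For the 62 cells 0 of the leading 20 did, and that order was headed by Myl9, the regulatory light chain of smooth muscle myosin, at 73.6-fold (2381 CPM).

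The next genes are given by rank. The light chain kinase gene Mylk was 52.0-fold higher, and Cox4i2, a cytochrome oxidase subunit of oxygen-sensing cells, 41.5-fold. Ppp1r14a, an inhibitor of myosin phosphatase, was 36.8-fold higher and Rgs4, a relative of Rgs5, 34.5-fold. The sphingosine-1-phosphate receptor gene S1pr3 followed at 30.1-fold, then Rasl11a at 29.1-fold and Pcp4l1 at 27.4-fold. Kcnj8, the pore of the channel that Abcc9 regulates, was ninth at 26.6-fold.

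Myh11 divides mural cells into those with smooth muscle myosin and those without. A Myh11 UMI was found in 44 of the 86 members (51.2%, interval 40.1 to 62.1%), in 15 of 36 with suffix 1 (41.7%) and in 29 of 50 with suffix 2 (58.0%). Among the 62 it was found in 43 (69.4%, interval 56.3 to 80.4%), in 14 of 22 (63.6%) and in 29 of 40 (72.5%). The intervals of both libraries overlapped in either set. The share depends on depth: after each cell was thinned to 2000 UMIs it was 24 of 73 (32.9%) and 24 of 49 of the 62 (49.0%). At that same depth it was 1 of 270 endothelial cells (0.370%), 0 of 443 fibroblasts and 0 of 1076 C1q-high cells (median 9629 UMIs before thinning). Those sets were chosen with fewer than 3 rule genes, Myh11 among them, so that their low share is in part set by the choice. The 155 cells with at least 3 rule genes and 3 endothelial genes had a Myh11 UMI in 23 after the same thinning (14.8%) and in 93 before it.

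The split is tied to depth and to the rule. Among the 62 cells the median was 6181 UMIs with and 3135 without a Myh11 UMI, so that absence of the transcript and a level below detection cannot be told apart in the latter. A cell with Myh11 needed 2 further rule genes and a cell without it 3, so that the rule itself favours the other rule genes in cells without it. All 19 rule-gene-high cells without Myh11 had an Rgs5 UMI, 17 of them an Abcc9 UMI and 17 a Vtn UMI. Of the 43 with Myh11, 30 had Rgs5, 19 had Abcc9 and 18 had Vtn.

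The levels of the other rule genes on each side of the split are in part set by the choice of cells. Since the 62 cells had to reach a sum of rule-gene UMIs, a cell low in Myh11, Acta2 and Tagln could enter only through the other rule genes, and nothing is read from the directions that follow. Rgs5 was at 2507 CPM with and 9078 without Myh11 in the library with suffix 1, and at 1753 and 6836 CPM with suffix 2. Abcc9 was at 284 and 1207 CPM, then at 196 and 594 CPM, and Vtn at 284 and 1062 CPM, then at 97.8 and 804 CPM. All 3 genes were lower with Myh11 in both libraries. Acta2 was at 10159 and 4539 CPM with suffix 1 and at 5828 and 881 CPM with suffix 2, and Tagln at 5379 and 1787 CPM, then at 5164 and 421 CPM, both higher with Myh11. In all 86 members the log2 ratios of Rgs5 and Abcc9 were 0.45 and 0.46, the opposite direction to the -1.92 and -1.79 of the 62, and all but 1 of the 24 rule-gene-low cells were on the side without Myh11.

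Across genes with at least 50 UMIs, a gene was called where it differed at least 2-fold with the same direction in both libraries, rule genes left out. In all 86 members 343 of 3269 genes were higher (10.5%) and 343 lower (10.5%). There the cells without Myh11 held 579831 UMIs, and only 72929 of these lay in the 62 cells. The calls in all 86 thus set cells with Myh11 largely against rule-gene-low cells. For the 62 cells 175 of 1197 were higher (14.6%) and 64 lower (5.35%). Single cells weighed on the calls in all 86, where the deepest member held 137407 of the 471029 UMIs with Myh11. Of the 15 named genes with the highest ratios, 10 in all 86 and 2 in the 62 had over 50% of their UMIs in 1 cell. Of the 15 with the lowest ratios, 6 and 3 did. Cells with Myh11 held 333622 of the 406551 UMIs of the 62 cells, so a gene lower in them reaches 50 UMIs less often, and the numbers of higher and lower genes are not comparable. Both sets shared 93 higher genes (27.1% of the 343 and 53.1% of the 175) and 14 lower genes (4.08% of 343 and 21.9% of 64). Cox4i2, Gucy1b1, Gng11 and Ndufa4l2 were higher in all 86 and lower in the 62, Gng11 being named here after its values were seen. Of the genes called in the 62 cells, 31 of the 175 higher and 21 of the 64 lower had a ratio of the opposite sign in all 86.

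The pericyte list shows how far the set of cells decides the result. Of its 20 genes, 13 had enough UMIs in all 86 members, and 7 of these were higher and 0 lower with Myh11, at a median log2 ratio of 1.13 beside -0.10 over all genes tested. Over the 62 cells 12 had enough UMIs, and 2 were higher and 6 lower, at a median of -0.66 beside 0.14. The shares over all genes tested were 10.5% each way in all 86, and 14.6% higher and 5.35% lower in the 62. The list summed to 5057 CPM with and 7583 CPM without Myh11 in the 62 cells, to 795 CPM in the 24 rule-gene-low cells, and to 1251 CPM in fibroblasts, 595 in endothelial cells and 182 in C1q-high cells. Its direction in the 62 cells is not independent of the rule: a cell without Myh11 had to reach the limit through the other rule genes, Rgs5, Abcc9 and Vtn among them, so genes that go with these can be raised on that side by the choice. How much of the difference this makes was not tested, and the directions of single pericyte genes below are descriptions of the chosen cells.

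Kcnj8 was the most unequal of these genes. It was at 203 CPM with and 1014 without Myh11 in the library with suffix 1, and at 102 and 728 CPM with suffix 2, a log2 ratio of -2.62 over the 62 cells (interval -3.21 to -2.03). It stood higher without Myh11 in both libraries, while in all 86 members its log2 ratio was -0.15. The cell with most Kcnj8, with 17 UMIs of it and no Myh11 UMI, also had 6 of the 10 Schwann cell genes. Kcnj8 (ENSMUSG00000030247, chr6:142564837-142571614, minus strand, GRCm38) lies beside Abcc9 (chr6:142587862-142702315, minus strand), and both encode parts of the same potassium channel, which links the energy state of a pericyte to its membrane potential.

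The other pericyte genes lower with Myh11 had varied functions. Pdgfrb, the receptor that recruits pericytes to the endothelium, was at 406 CPM with and 1449 without Myh11 with suffix 1, and at 242 and 709 CPM with suffix 2 (log2 -1.66, interval -2.12 to -1.19). In all 86 members its ratio had the opposite sign, at 0.38. The log2 ratio of Art3, a member of the ADP-ribosyltransferase family, was -2.35 and that of the metalloreductase gene Steap4 -2.24. Cox4i2 and Ndufa4l2, both of mitochondrial complexes and responsive to oxygen, had ratios of -1.24 and -1.11. Those last ratios changed sign when the limit was set at 10 rule-gene UMIs per 10000, to 0.072 and 0.25.

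Some genes often used for pericytes went the other way or had no clear direction. Mcam, an adhesion molecule of mural cells, was at 304 CPM with and 96.6 without Myh11 with suffix 1, and at 268 and 134 CPM with suffix 2 (log2 1.18). Des, the intermediate filament desmin, was at 2080 and 579 CPM, then at 842 and 268 CPM (log2 1.76). Without 3 cells rich in Actg2, described below, Des was at 536 and 579 CPM with suffix 1, so that its direction then differed between the libraries and it was no longer called. Cspg4, the proteoglycan NG2, was low at 78.7 CPM, and its ratio of 0.61 had an interval of -0.90 to 2.59. Rgs4 was near equal, at a log2 ratio of -0.14 (interval -0.74 to 0.49).

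**Figure D2:**
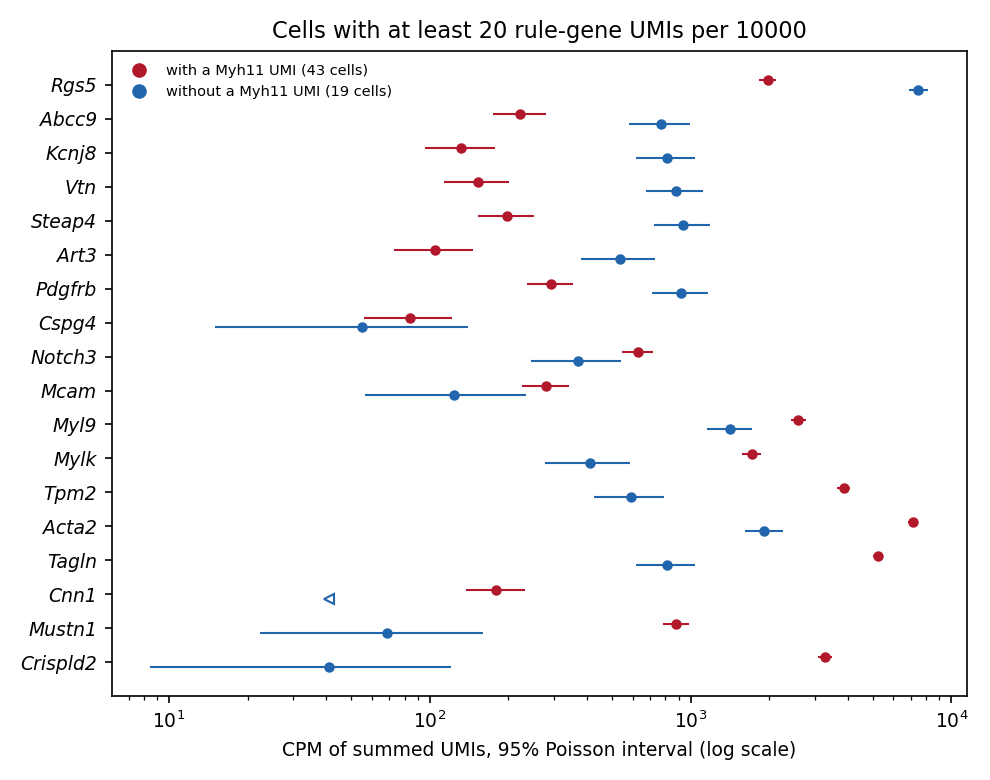
Levels (CPM of summed UMIs, log scale) of 18 genes in the 62 rule-gene-high cells, for the 43 cells with a Myh11 UMI (red) and the 19 without (blue), with exact 95% Poisson intervals as bars. The open triangle is the level that 3 counts come to, for Cnn1 with 0 UMIs. The genes were picked after their values were seen; Rgs5, Abcc9, Vtn, Notch3, Acta2 and Tagln are rule genes. Kcnj8 is higher without Myh11, at 809 against 132 CPM, and Tpm2 higher with it, at 3861 against 590 CPM.

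Genes of the contractile list were mostly higher with Myh11. In all 86 members 22 of the 24 genes with enough UMIs were higher and 0 lower (median log2 2.50), and in the 62 cells 16 of 24 were higher and 0 lower (median 1.86), out of 30 listed. The count in all 86 is in large part a contrast with rule-gene-low cells. Of the 579831 UMIs without Myh11 there, 72929 lay in the 62 cells. Over all genes tested, 10.5% were called each way in all 86 (median -0.10). In the 62 cells 14.6% were higher and 5.35% lower (median 0.14). The list summed to 30169 CPM with and 13081 without Myh11 in the 62 cells, to 3674 CPM in the 24 rule-gene-low cells and to 5210 CPM in C1q-high cells, where it was mostly Crip1 at 3972 CPM. In endothelial cells it was at 4452 CPM and in fibroblasts at 3659 CPM. Cells without Myh11 stood above these sets, but they were chosen for rule genes and those sets for fewer than 3 of them. Nothing is read from that difference. The direction of the list with Myh11 is not independent of the rule either, which used Acta2 and Tagln of the same apparatus.

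By level in the 62 cells Crip1 led this list at 6383 CPM. Proteins of the thin filament and of its regulation are described next. Tpm2, a tropomyosin, was at 5977 CPM with and 628 without Myh11 with suffix 1, and at 2973 and 574 CPM with suffix 2 (log2 2.71, interval 2.27 to 3.18). Mylk was at 2801 and 435 CPM, then at 1259 and 402 CPM (log2 2.06), and Ppp1r14a had a log2 ratio of 2.69. These genes were higher with Myh11 in either library. Cnn1, the thin filament protein calponin, was found in 7 of the 62 cells, all with Myh11, and was at least 4.37-fold higher against 3 counts over the group without. Without the 3 cells rich in Actg2, described below, the bound of Cnn1 was a log2 ratio of 1.50 and it was no longer called. Mustn1, a small nuclear protein of muscle, had a log2 ratio of 3.68 (interval 2.44 to 5.31), and Actn1, an actinin, 5.04 (interval 2.54 to 10.35) with 1 UMI on the side without Myh11.

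Not every contractile gene followed the split in the 62 cells. Myl9, though the leading gene of the 62 cells, was at 3836 CPM with and 2270 without Myh11 with suffix 1, and at 2072 and 1072 CPM with suffix 2 (log2 0.88). It was therefore high on either side, under the 2-fold limit. Vcl, which anchors actin at adhesions, had a log2 ratio of -0.02 (interval -0.77 to 0.80), and Filip1l of -0.05 (interval -0.70 to 0.65).

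A few cells with Myh11 stood apart. Of the 44 members with a Myh11 UMI, 4 had no UMI of either Rgs5 or Notch3. Among them 3 cells with suffix 1, of 20048, 11752 and 1378 UMIs and singled out after their values were seen, had 38, 26 and 5 UMIs of Actg2, the enteric smooth muscle actin, and 6, 6 and 1 of Npnt, the matrix ligand of integrin alpha 8. Npnt, Itga8, Des and Actg2 belong to a list of 8 hair follicle and arrector pili muscle genes, of which 7 members with Myh11 and 0 without had at least 4. Over the 62 cells this list summed to 3027 CPM with suffix 1 and 1138 CPM with suffix 2, led by Des at 1055 CPM, with Acan at 0. Actg2 was at 579 CPM with suffix 1 and 13.9 CPM with suffix 2, so that its sum rests on 1 library. Without the 3 cells, an alternative chosen after seeing the data, 138 of the 175 higher and 52 of the 64 lower genes of the 62 were still called. With suffix 1, Acta2 was then at 5080 CPM with and 4539 without Myh11, Tpm2 at 2479 and 628 CPM, and Mylk at 1178 and 435 CPM. Of the contractile list 12 of 20 genes were then higher and 0 lower, and of the pericyte list 1 of 12 higher and 5 lower. Over all genes 156 were then higher and 58 lower. No share of the genes tested is given for this set of cells, so nothing is read from these counts.

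Among genes called in the 62 cells, the highest ratio was that of Crispld2, a secreted protein of the cysteine-rich family (ENSMUSG00000031825, chr8:119992438-120052793, plus strand). It was at 1756 CPM with and 48.3 without Myh11 with suffix 1, and at 3926 and 38.3 CPM with suffix 2, a log2 ratio of 6.32 (interval 4.77 to 8.60) with 3 UMIs on the side without. It was found in 35 of the 62 cells, and 30.7% of its UMIs were in 1 cell. In all 86 members its log2 ratio was 2.77. The lowest ratios among called genes were those of Cd74 (-7.68), H2-Aa (-6.71) and H2-Ab1 (-6.36), which lay at 96.3, 94.4 and 92.9% in 1 cell and say little of the others.

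Signals that bind mural cells to the endothelium were mostly sparse. For the lists that follow, the shares over all genes were 14.6% higher and 5.35% lower in the 62 cells and 10.5% each way in all 86, and counts of so few genes say little about a list. In the PDGF, angiopoietin, TGF-beta and VEGF list, 4 of 25 genes had enough UMIs in the 62 cells and 3 were higher with Myh11 (all 86: 3 higher and 1 lower of 12). Id3, a target of BMP and TGF-beta signalling, was at 2466 CPM with and 917 without Myh11 with suffix 1, and at 3016 and 1092 CPM with suffix 2 (log2 1.45). S1pr3 had a log2 ratio of 1.53. Angpt1, the pericyte ligand of endothelial Tie2, had 9 UMIs in 8 of the 62 cells (22.1 CPM, interval 10.1 to 42.0), and its antagonist Angpt2 reached 73.8 CPM in 17 cells.

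Receptors for vasoactive agents gave 4 calls, none of which held in every setting. In their list with cyclic nucleotide signalling, 2 of 7 genes were higher and 2 lower in the 62 cells, beside 14.6% and 5.35% over all genes (all 86: 6 higher and 0 lower of 11), out of 37. The vasopressin receptor gene Avpr1a was at 254 CPM with and 48.3 without Myh11 with suffix 1, and at 179 and 19.1 CPM with suffix 2. Its log2 ratio of 2.87 (interval 0.96 to 5.95) rests on 2 UMIs in cells without Myh11 and was -0.47 when Myh11 status was read after thinning. Ramp1, a subunit of the receptor for the neuropeptide CGRP, had a log2 ratio of 1.69, and of 0.91 without the 3 cells rich in Actg2. Gucy1b1, a subunit of the nitric oxide receptor, had one of -1.16, which became 0.27 at a limit of 10 rule-gene UMIs per 10000. Rgs16, a regulator of G protein signalling, had a ratio of -1.84, but of 0.59 in all 86 members.

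Few genes of calcium pumps, regulators and the Notch pathway had enough UMIs, and their counts stand beside 14.6% higher over all genes in the 62 cells and 10.5% in all 86. Of the channels, pumps and gap junctions 1 of 4 genes was higher in the 62 cells (all 86: 5 of 8, none lower): Atp2a2, the calcium pump of the sarcoplasmic reticulum, was at 589 CPM with and 241 without Myh11 with suffix 1, and at 302 and 57.4 CPM with suffix 2. Of the transcription regulators 2 of 8 were higher (all 86: 5 higher and 1 lower of 10), namely Mef2c at a log2 ratio of 1.74 and Nfib at 1.13. In the list of the Notch pathway 1 of 2 genes was higher (all 86: 3 higher and 2 lower of 7). This was Nrip2, a nuclear receptor interacting protein, at 3.59 (interval 1.05 to 8.92) with 1 UMI on the side without Myh11. Nothing about Notch signalling is read from this gene.

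The vascular basement membrane is the layer that mural and endothelial cells lay down together. Among the 62 cells 2 of 9 of its genes were higher with Myh11 and 0 lower (all 86: 3 higher and 2 lower of 14), at a median log2 of 0.13 beside 0.14 over all genes tested. Col4a1, the main collagen of that layer, was at 589 CPM with and 917 without Myh11 with suffix 1, and at 527 and 460 CPM with suffix 2. Its direction thus differed between the libraries, and the summed ratio was -0.11. Sparcl1, a matricellular protein, was at 2334 and 1255 CPM, then at 1663 and 689 CPM (log2 1.13), and Col18a1, the source of endostatin, had a log2 ratio of 2.51 with 3 UMIs on the side without. The list as a whole stood at 7802 CPM in the 62 cells, beside 5769 CPM in endothelial cells and 28073 CPM in fibroblasts.

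Receptors for that matrix had few genes with enough UMIs. Of 6 such genes in the 62 cells 2 were higher and 1 lower, beside 14.6% and 5.35% over all genes (all 86: 3 higher and 1 lower of 9). Itga1, the collagen-binding integrin chain, was at 365 CPM with and 628 without Myh11 with suffix 1, and at 174 and 460 CPM with suffix 2 (log2 -1.14, but 0.73 in all 86 members and 0.044 at a limit of 10 rule-gene UMIs per 10000). Itga8, an integrin chain of contractile cells, had 50 UMIs with and 0 without Myh11, at least 3.64-fold higher against 3 counts over the group. Without the 3 cells rich in Actg2 the bound of Itga8 was a log2 ratio of 1.76 and it was no longer called. Bcam, a receptor of laminin alpha 5, had a log2 ratio of 2.18.

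Genes of the interstitial matrix and its proteases were counted next. Over the 62 cells 4 of 8 genes of the interstitial and elastic fibre list were higher and 0 lower, beside 14.6% higher and 5.35% lower over all genes (all 86: 0 higher and 2 lower of 15). The fibroblast markers were also higher with Myh11, at 1538 against 1001 CPM, with 46.2% of their UMIs in 1 cell. Their part in these calls was not tested. Thbs1, an adhesive glycoprotein that activates latent TGF-beta, was at 497 CPM with and 435 without Myh11 with suffix 1, and at 2203 and 134 CPM with suffix 2. Its size thus rests on the library with suffix 2. Of the proteases and inhibitors 4 of 9 were higher and 0 lower (all 86: 4 of 12, none lower). Adamts1, a protease of proteoglycans, was at 1218 and 821 CPM, then at 1684 and 287 CPM, and the aggrecanase gene Adamts4 at 1340 and 483 CPM, then at 1604 and 364 CPM.

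Chemokines and cytokines of leukocyte recruitment, a list of 31 genes, were not particular to mural cells. The list summed to 14598 CPM in the 62 cells (11766 with suffix 1 and 15774 with suffix 2), 16297 in C1q-high cells, 11400 in fibroblasts and 5263 in endothelial cells. With Myh11, 2 of 12 genes were higher and 2 lower (all 86: 4 higher and 2 lower of 15). The neutrophil chemokine gene Cxcl1 was at 6243 CPM, in 38 cells, against 464 CPM in C1q-high cells. With and without Myh11 it was at 4709 and 4394 CPM with suffix 1 and at 7946 and 2202 CPM with suffix 2, so that the 2.47-fold difference rests on suffix 2. It turned to a log2 ratio of -1.23 when Myh11 status was read after thinning and of -1.07 when 2 Myh11 UMIs were asked, so no direction is given for Cxcl1. Il6 was at 2696 CPM in 32 cells, against 496 CPM in endothelial cells and 31.0 in C1q-high cells, with a log2 ratio of 0.86. No comparison of Cxcl1 or Il6 with fibroblasts is given, so neither gene is called particular to mural cells.

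Further chemokines differed in direction. Cxcl12, which holds leukocytes and progenitors near vessels, was at 386 CPM with and 1594 without Myh11 with suffix 1, and at 294 and 613 CPM with suffix 2 (log2 -1.47, interval -1.93 to -1.01). It was thus lower with Myh11 in either library of the 62, while in all 86 members its ratio was 0.90. The eotaxin gene Ccl11 had a log2 ratio of -2.83, but 47.1% of its UMIs lay in 1 cell. The monocyte chemokine gene Ccl7, called higher, had 89.8% of its UMIs in 1 cell and a ratio of -0.94 as a mean over cells. Vcam1, the adhesion molecule, had 6 UMIs in the 62 cells.

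**Figure D3:**
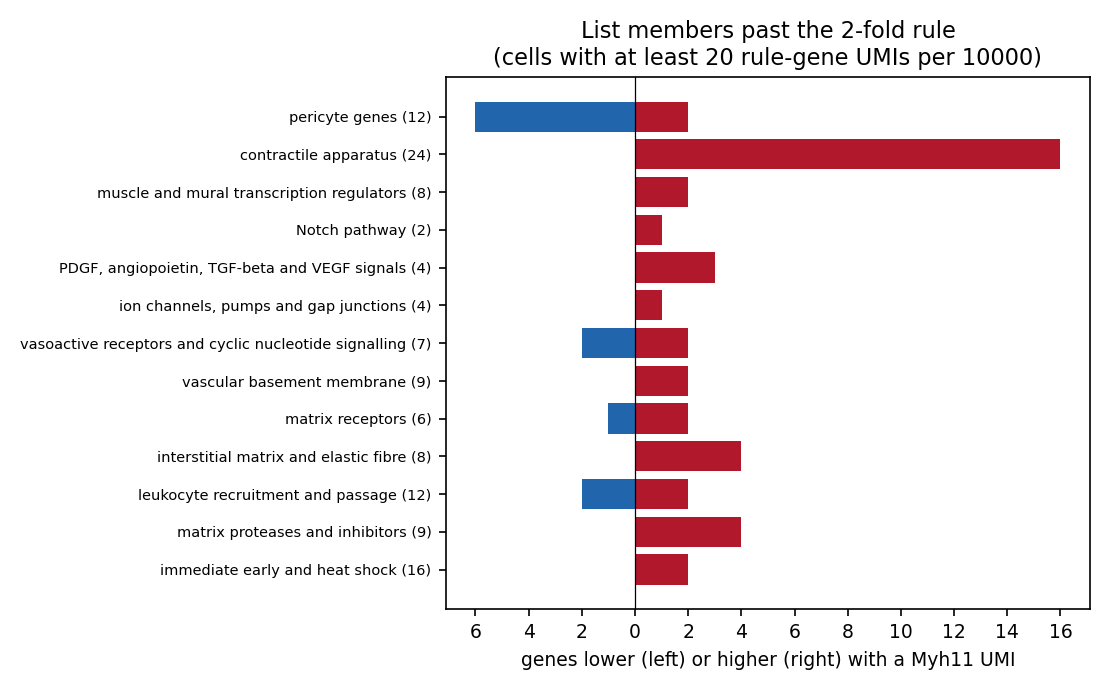
Number of genes (x) of each list past the 2-fold rule in the 62 rule-gene-high cells, lower with a Myh11 UMI to the left in blue and higher to the right in red, with the number of genes that had enough UMIs in brackets. The contractile list has 16 genes higher and 0 lower, and the pericyte list 2 higher and 6 lower, beside 14.6% higher and 5.35% lower over all genes tested. There are no error bars, as these are counts of genes.

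Immediate early and heat shock genes, which dissociation of tissue can induce, took up 29593 CPM of the 62 cells, 25686 with suffix 1 and 31214 with suffix 2. The same list stood at 23785 CPM in endothelial cells and 15764 CPM in fibroblasts. Of 16 genes 2 were higher with Myh11 and 0 lower (all 86: 0 higher and 1 lower of 17), at a median log2 of -0.05 beside 0.14 over all genes tested. Its part in the levels of Cxcl1, Il6 and Thbs1 was not tested.

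The contractile genes are known targets of serum response factor, which binds the CArG box, so their promoters were searched on both strands from 250 bases before to 50 after each start. Of the 30 contractile genes, 27 were in the RefSeq promoter table and 4 (14.8%) held an exact box in at least 1 promoter. The same count over all genes of that table gave 488 of 27025 (1.81%), and a count by promoter 535 of 32851 (1.63%). The 4 were Myl9, Myl6, Vcl and Filip1l. In the rule-gene-high cells Myl6, a myosin light chain (log2 1.54), was called higher with Myh11 and the others were not. In all members, by contrast, Myl9 was called higher, at a log2 ratio of 2.96. The pericyte list had 0 of 14 and the rule genes 0 of 5, with Myh11 and Tagln not in the table. With 1 mismatch in the A/T stretch the shares were 37.0% of the contractile genes, 11.3% of all genes and 9.98% of all promoters, and Acta2 then held a box. A match is a description and does not show binding.

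The promoters of Myl9, which led the 62 cells, and of Acta2, the most abundant rule gene, are shown because both stood high in mural cells. They are from RefSeq on GRCm38.p6, read 5' to 3' on the strand of the gene, at chr2:156775214-156775513 (plus) for Myl9 and chr19:34255324-34255623 (minus) for Acta2. Capitals mark the exact box of Myl9 at -161 and, in Acta2, 2 matches with 1 mismatch, the first at -84. A match with 1 mismatch at -99 in Myl9 is left in small letters.
Acta2: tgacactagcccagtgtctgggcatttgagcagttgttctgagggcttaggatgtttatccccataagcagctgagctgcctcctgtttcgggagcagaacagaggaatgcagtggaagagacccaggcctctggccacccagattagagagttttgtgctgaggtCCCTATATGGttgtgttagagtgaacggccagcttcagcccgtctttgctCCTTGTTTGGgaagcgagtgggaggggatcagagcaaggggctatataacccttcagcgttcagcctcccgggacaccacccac
Myl9: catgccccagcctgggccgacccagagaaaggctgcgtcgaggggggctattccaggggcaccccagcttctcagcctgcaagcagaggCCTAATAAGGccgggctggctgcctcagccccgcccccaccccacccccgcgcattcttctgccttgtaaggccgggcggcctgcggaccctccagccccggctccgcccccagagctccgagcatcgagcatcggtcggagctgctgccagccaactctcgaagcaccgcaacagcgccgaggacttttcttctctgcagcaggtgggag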

How the data were processed

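UMI counts of single cells were deposited by the authors as 1 matrix of 32285 genes and 5257 barcodes, made with Cell Ranger 4.0.0 on mm10. Barcode suffixes 1 and 2 separate 2 libraries and are not tied to an age. A barcode was kept from 500 genes and 1000 UMIs up, with no more than 10% of its UMIs mitochondrial (Python 3.11.15, numpy 2.4.6, scipy 1.17.1, matplotlib 3.10.9). No doublet caller was run, and the endothelial, C1q and collagen limits were the only filter on mixed cells. Members and gene lists were chosen with earlier results of these data known. The division at 20 rule-gene UMIs per 10000 was chosen after seeing the data.

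UMIs were summed over cells and divided by the total (CPM), with exact 95% Poisson intervals, and ratios with exact binomial intervals. A sum of 0 was set to 3 counts over the group, and a bound that then pointed the other way was given no value. Of rows that share a symbol, the one with most UMIs was used. Cells were thinned to 2000 UMIs with seed 1. Endothelial cells had at least 3 of the 6 endothelial genes, fibroblasts at least 100 collagen UMIs and C1q-high cells at least 15 C1q UMIs per 10000, each with fewer than 3 rule genes and within the other limits.

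Named genes were the rule genes, in each list the 4 of highest level and up to 6 past the 2-fold rule each way in all members, the 15 highest and 15 lowest ratios, and the 20 that led over other cells. The last orders were also made in the 62 cells. Angpt1, Angpt2, Cspg4, Cxcl12, Filip1l, Mef2c, Npnt, Vcl and marker genes at 0 were chosen after their values were seen. Calls and intervals were tested on simulated data. Alternatives covered the cell filter, each limit of the rule, each library, Myh11 status, the mean over cells, totals without rule genes, the UMI minimum and the CArG match.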

Additional observations from a re-analysis of the deposited data

How the results depend on the processing

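The matrix counts as 1 sample. No paired analysis was possible because each age has 1 library, whose suffix is not known. Depth limits the split, since a cell of few UMIs can miss Myh11, and the 19 of the 62 rule-gene-high cells without a Myh11 UMI hold few UMIs. Values not given below kept their direction, or moved within 1.5 times or the counting interval, or are log2 ratios of named genes that moved, with a change of sign only where the reported ratio had not been called: of the alternative values of named genes, 1465 of 4910 moved and 61 reversed in all 86 members, and 327 of 2216 and 11 in the 62. The causes were not tested.

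Cell filter and rule, all members. A mitochondrial limit of 5% left 14 members, with 62 genes higher and 56 lower with Myh11 and Vcam1 at a log2 ratio of 0.84, and a limit of 20% gave 164 members and 561 genes higher, with Mbp at 1.04 and Mgst1 at -0.23. At least 2 rule genes gave 137 members, 33.6% with Myh11 and 853 genes lower, and at least 4 gave 221 higher and 135 lower. Without the endothelial limit there were 228 members, 216 genes higher and 137 lower, and Timp4 was at -0.084. With collagen under 50 UMIs, Ccl7 was at -1.25. With the rule read after thinning to 2000 UMIs, 68.7% had Myh11 and 56 genes were lower, with Ano1 at -0.015, Cers4 -1.04, Cox4i2 -0.94, Ebf2 -0.10, Gucy1b1 -0.94, Jag1 -0.071, Kcne4 -0.16, Klf2 -0.29, Lamc3 0.16, Ndufa4l2 -0.62, Rasl11a -0.35 and Timp4 -0.52.

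Each library alone. In all members suffix 1 gave 572 genes lower, and suffix 2 gave 221 higher and 97 lower. In the 62 cells suffix 1 gave 52 higher and 28 lower. The rule genes summed to 4131 CPM with suffix 1 and 10387 CPM with suffix 2 in all members, and to 20789 and 14291 CPM in the 62.

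Myh11 status. After thinning, 32.9% of all members and 49.0% of the 62 had Myh11, and 106 genes were higher in the 62. Log2 ratios in all members were then -2.99 for Abcd3, -4.18 for Acacb, -3.03 for Cers4, -6.07 for Cidea, -2.18 for Emc9, -1.69 for Mgll, -3.68 for Mgst1, -2.81 for Mvd, -0.13 for Nfib, -3.44 for Pxmp4 and -1.73 for Tlcd2. The deepest member had 1 Myh11 UMI, and its part in these changes was not tested. In the 62 the log2 ratios were -0.47 for Avpr1a, -0.15 for Bmp2, -1.23 for Cxcl1 and -0.22 for Fgl2. With at least 2 Myh11 UMIs the shares were 36.0% and 50%, and the ratios in all members -2.45 for Abcd3, -4.41 for Acacb, -2.95 for Cers4, -6.30 for Cidea, -2.41 for Emc9, -1.87 for Mgll, -3.71 for Mgst1, -4.60 for Mvd, -0.18 for Nfib, -2.41 for Pxmp4 and -1.60 for Tlcd2, and in the 62 -1.07 for Cxcl1.

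Levels and minimum. As a mean over cells, Ccl7 was at -0.94 in the 62. A minimum of 20 UMIs gave 662 genes higher and 820 lower in all members and 504 and 180 in the 62, and a minimum of 200 gave 86 and 64, and 36 and 13, as more or fewer genes were counted. With 1 mismatch, 37.0% of contractile genes held a CArG box.

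Alternatives chosen after seeing the data. The comparison with all members started from their ratios, so that genes called in the 62 alone are not in its list: Cxcl12, Itga1, Pdgfrb and Rgs16 were at 0.90, 0.73, 0.38 and 0.59 in all members and at -1.47, -1.14, -1.66 and -1.84 in the 62. The 62 cells alone had 69.4% with Myh11, 175 genes higher and 64 lower. Against all members they reversed Ano1 (-0.87), Cers4 (-1.001), Col5a2 (0.13), Cox4i2 (-1.24), Dag1 (0.13), Dpt (0.22), Esam (-0.73), Fgfr1 (2.66), Gja4 (-0.13), Gjc1 (-0.23), Gucy1b1 (-1.16), Kcne4 (-0.50), Klf2 (-0.21), Mef2d (0.22), Ndufa4l2 (-1.11), Pdpn (0.98), Rasl11a (-0.12), Rgs4 (-0.14) and Vcam1 (0.13). Without members over 30000 UMIs, 128 genes were lower in all members, with Lamc3 at 0.28 and Nfib at -0.38. At least 10 rule-gene UMIs per 10000, in place of 20, gave 263 genes higher and 139 lower, with Cox4i2 at 0.072, Gucy1b1 0.27, Itga1 0.044 and Ndufa4l2 0.25. Without cells of 100 or more MHC class II UMIs per 10000, H2-DMb1 was at 1.37 in all members and Emp1 at 0.14 in the 62. Without 3 cells of 5 or more Actg2 UMIs no ratio that had been called reversed, and 156 genes were higher and 58 lower in the 62.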
